A study of Caenorhabditis elegans with 2 samples.

Results

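Cuticle collagen genes were examined for calls of the tagged F10B5.3 protein in Caenorhabditis elegans. The members were the protein-coding genes of Ensembl release 115 (WBcel235, the same assembly as ce11) whose names start with col-, 156 in all, and 15 collagen genes named for their mutant shape: dpy-2, dpy-3, dpy-5, dpy-7, dpy-8, dpy-9, dpy-10, dpy-13, rol-6, rol-8, sqt-1, sqt-2, sqt-3, bli-1 and bli-2. This gave 171 of 19985 annotated protein-coding genes. The rule went by name and used no measured value, but it was set with earlier results of these data known. Chromatin immunoprecipitation followed by sequencing had been done with an antibody against GFP on 2 biological replicates of whole hermaphrodites of strain OP529 at the L4 larval stage, 48 hours after release from synchronization as starved L1 larvae. Both replicates carried the integrated transgene wgIs529, which makes F10B5.3 fused at its C terminus to GFP and FLAG, and the mutation unc-119(tm4063). The labels give 1 group and name no second group, 1 transgenic line was used, and the promoter of the transgene is not given in the sources used here. Whole worms hold many cell types, so no call could be assigned to the epidermis.

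The cuticle is the collagen-rich outer coat of the worm, secreted by the epidermis and rebuilt at every moult. Its collagens are small secreted proteins with long runs of the Gly-X-Y repeat, in which X and Y are often proline or hydroxyproline. Loss or change of single members gives dumpy (dpy), roller (rol), squat (sqt) or blistered (bli) animals. Transcription of many members rises and falls with each moulting cycle, and L4 larvae are preparing the final moult into the adult.

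Calls came from the authors' relaxed lists, which hold weak as well as strong calls: 30000 calls in the pool of both replicates, 22211 in replicate 1 and 27642 in replicate 2. The 862 peaks that passed the authors' irreproducible discovery rate (IDR) analysis had pooled signals from 86.5 to 11176 and are called IDR peaks here. The signal is the authors' peak caller's own value, of a scale that was not stated, and read depth is unknown. A gene was counted when a summit, the highest point of a call, lay within 1000 bp of one of its transcription start sites (TSSs), and its highest such signal was taken. With 1 group and genes that are not replicates, no test was run: members are set beside all protein-coding genes, with 95% Wilson intervals that cover counting error only and treat genes as separate although some share a call.

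Cuticle collagen genes had relaxed calls near the TSS more often than protein-coding genes at large, few of them IDR peaks, and most of their highest calls lay in their own coding exons rather than at their promoters. Only col-63 and col-185 had an IDR summit within 1000 bp of a TSS, 2 of 171 members (1.17%, interval 0.321 to 4.16), where the background over all protein-coding genes was 3.37% (673 of 19985). The interval includes that background, and the order turned when more pooled calls were admitted by signal: the 1293 highest gave 9 members (5.26%) and 4.86% of all genes, and the 1724 highest gave 12 (7.02%) and 6.15%. Any pooled call was found at 110 members (64.3%, interval 56.9 to 71.1), against 47.5% of all protein-coding genes. The gap rested on calls further than 500 bp from the TSS: within 500 bp a pooled call was found at 61 members (35.7%) and at 35% of all protein-coding genes, and no member had an IDR summit. Within 2000 bp 5 members had an IDR summit (2.92%), against 4.95% of all genes. Among genes with a pooled call the IDR share was 2 of 110 members (1.82%, interval 0.5 to 6.39), against 7.09% of 9495 genes. In the gene's own coding exons a pooled summit was present at 115 members (67.3%), against 27.4% of all protein-coding genes. None of the 170 summits there was an IDR peak, and over all protein-coding genes 45 of 8207 such summits were (0.548%).

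The DNA at many of these coding-exon calls encodes the glycine repeat. The windows below are the 101 bases centred on the highest pooled summit, read from the ce11 assembly on the strand of the gene, 5′ to 3′, with each in-frame glycine codon (GGN) in capitals. They are shown because own coding sequence, and not promoter sequence, lay at most members' highest calls. Those of col-120, col-129, col-184 and col-105 are among the highest coding-exon calls of the members, col-19 encodes a collagen of the adult cuticle, rol-6, sqt-3 and dpy-7 encode body shape collagens, and sqt-1 is shown as a high call with few glycine codons.
col-120, chrIV:9261042-9261142, minus strand: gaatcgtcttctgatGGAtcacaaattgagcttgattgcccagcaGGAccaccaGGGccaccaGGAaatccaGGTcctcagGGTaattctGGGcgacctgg
col-129, chrIV:12109006-12109106, minus strand: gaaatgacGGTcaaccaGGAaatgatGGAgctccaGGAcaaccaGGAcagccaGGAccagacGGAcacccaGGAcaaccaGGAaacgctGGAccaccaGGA
col-184, chrX:13469932-13470032, plus strand: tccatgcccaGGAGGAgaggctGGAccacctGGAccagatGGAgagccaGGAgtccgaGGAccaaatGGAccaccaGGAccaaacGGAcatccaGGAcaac
col-105, chrIV:1358190-1358290, minus strand: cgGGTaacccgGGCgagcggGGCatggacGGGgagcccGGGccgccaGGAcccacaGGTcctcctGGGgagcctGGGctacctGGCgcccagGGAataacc
col-19, chrX:422186-422286, plus strand: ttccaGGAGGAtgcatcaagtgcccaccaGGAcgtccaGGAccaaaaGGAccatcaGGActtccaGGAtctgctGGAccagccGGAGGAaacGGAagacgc
rol-6, chrII:8733798-8733898, plus strand: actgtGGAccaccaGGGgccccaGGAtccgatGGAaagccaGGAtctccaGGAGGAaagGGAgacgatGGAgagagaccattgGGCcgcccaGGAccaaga
sqt-3, chrV:12353770-12353870, plus strand: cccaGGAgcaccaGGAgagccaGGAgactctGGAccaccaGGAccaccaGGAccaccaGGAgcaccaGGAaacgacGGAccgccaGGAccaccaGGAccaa
dpy-7, chrX:7536995-7537095, minus strand: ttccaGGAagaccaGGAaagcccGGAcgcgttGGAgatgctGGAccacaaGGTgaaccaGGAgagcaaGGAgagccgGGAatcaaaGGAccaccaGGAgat
sqt-1, chrII:11337448-11337548, minus strand: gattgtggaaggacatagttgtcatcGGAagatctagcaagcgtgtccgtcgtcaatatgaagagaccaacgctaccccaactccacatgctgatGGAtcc

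Each of these windows held 33 whole codons. Glycine codons numbered 11 in col-129, col-184, col-105, col-19, rol-6, sqt-3 and dpy-7, 7 in col-120 and 2 in sqt-1. For sqt-1, sqt-3 and dpy-7 the highest summits of both replicates lay outside the printed window, so those counts describe the pooled summit only. In windows not printed here there were 10 in col-91 and 8 in dpy-13. Across the 80 members whose highest summit lay in an own coding exon, 727 of 2568 codons in the windows were glycine codons (28.3%), compared with 20.2% of all codons in the 171 members. In other protein-coding genes with a highest summit in an own coding exon the windows held 6.64% glycine codons, and all their codons together 5.20%. The glycine share is a property of collagen genes, and its excess in the windows over the members' whole coding sequence says only where along the genes the summits lay.

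The position of the highest call differed from that of the genome at large in the pool and in both replicate lists. The median summit lay 542 bp downstream of the TSS over 110 members, against 51 bp upstream over all 9495 genes with a call (a median of -51 bp). The summit was downstream of the TSS for 90 of 110 members (81.8%, interval 73.6 to 87.9) and for 46.1% of all genes with a call. In the list of replicate 1 it was downstream for 88 of 107 members (82.2%) and 46.2% of all genes, and in that of replicate 2 for 89 of 112 members (79.5%) and 46.3%. An own coding exon held the highest summit of 80 of 110 members (72.7%) in the pool, 76.6% in replicate 1 and 72.3% in replicate 2. The values over all genes with a call were 21.2%, 21.6% and 21.1%. For 24 of 110 members (21.8%, interval 15.1 to 30.4) a 31-base stretch within 50 bp of the highest pooled summit occurs elsewhere in the genome. That share was 7.65% over all genes with a call, so the placing of some of these calls is uncertain. Collagen genes are short and mostly coding, with a median gene length of 1221 bp against 2026 bp over all protein-coding genes. Coding exons made up 168 of 254 kb of the members, against 24696 of 62832 kb of all protein-coding genes. The part of this in the position of the calls was not tested. Few members had the usual promoter position: 5 of 110 summits (4.55%) lay within 100 bp of the TSS, against 14.7% of all genes with a call.

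**Figure D1:**
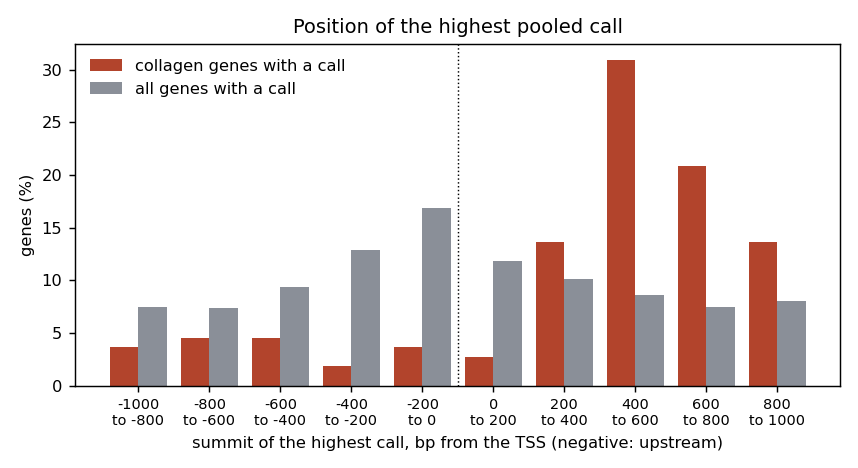
Position of the summit of the highest pooled call relative to the TSS, in bins of 200 bp (x axis, bp, negative values upstream), as the percentage of 110 collagen genes with a call (red) and of 9495 protein-coding genes with a call (grey). Collagen genes peak between 400 and 600 bp downstream with 30.9% of genes, whereas all genes are most frequent in the 200 bp upstream of the TSS with 16.9%.

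Counted over all pooled calls, 72 members (42.1%) had summits downstream of a TSS and none upstream within 1000 bp, against 15.4% of all protein-coding genes. The converse, upstream summits and none downstream, held for 6 members (3.51%), against 17.6% of all genes. Upstream summits of any kind were found at 38 members (22.2%, interval 16.6 to 29) and at 32.1% of all genes. By gene model, the highest summit of 83 of 110 members lay in a coding exon of some gene (75.5%, against 27.0% of all genes with a call) and that of 13 in an intron (11.8%, against 26.1%). It lay between protein-coding genes for 12 members (10.9%, against 38.8%). A 5′ UTR held the highest summit of 1 member and a 3′ UTR that of 1 other.

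**Figure D2:**
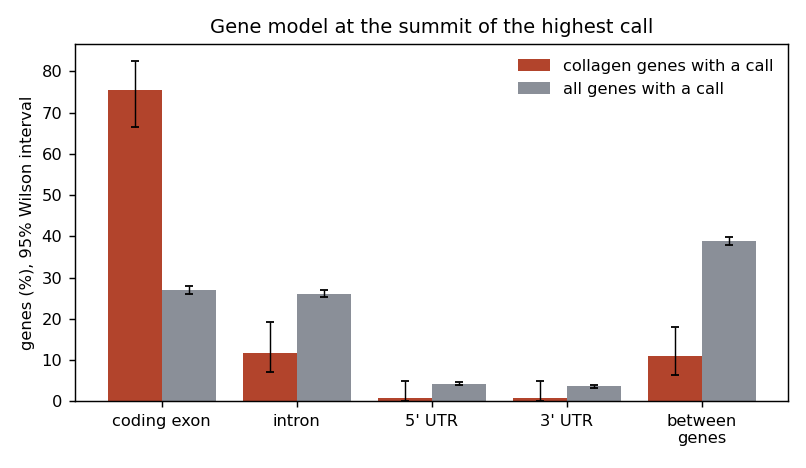
Gene model at the summit of the highest pooled call (x axis) as a percentage of genes (y axis), for 110 collagen genes with a call (red) and 9495 protein-coding genes with a call (grey), with 95% Wilson intervals as bars. Coding exons hold 75.5% of the collagen summits and 27.0% of the summits of all genes.

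Collagen coding exons are rich in G and C, and the density of calls moved with GC content in other genes too. The median GC content of the members' coding exons was 55.1%, against 42.5% in all other protein-coding genes. At the highest summits the median GC within 50 bp was 57.4% for members and 38.6% for all genes with a call. Pooled summits in coding exons numbered 101 per 100 kb in collagen genes and 33.2 per 100 kb in all protein-coding genes. Genes whose coding exons had 55 to 60% GC had 120 summits per 100 kb in 68 members and 100.5 per 100 kb in 189 other genes. At 50 to 55% the densities were 104 in 58 members and 83.2 in 1432 other genes, and at 45 to 50% they were 74.1 in 24 members and 48.8 in 4343 other genes. At 60% or more the order turned, with 84.4 in 18 members and 111 in 30 other genes. The share of genes with a summit was 75% of members and 45% of other genes at 55 to 60% GC, 67.2% and 42.5% at 50 to 55%, 58.3% and 37.9% at 45 to 50%, and 61.1% and 36.7% at 60% or more. The part of GC content in the members' calls was not tested. The classes were chosen after the position of the calls had been seen.

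**Figure D3:**
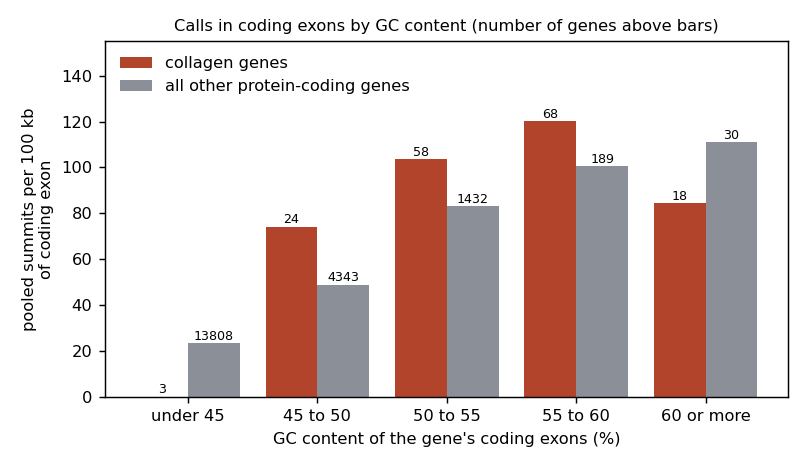
Pooled summits per 100 kb of coding exon (y axis) in genes grouped by the GC content of their coding exons (x axis, %), for collagen genes (red) and all other protein-coding genes (grey), with the number of genes above each bar. Density rises with GC content in other genes at every step, reaching 100.5 at 55 to 60%, where collagen genes have 120. The 3 collagen genes under 45% have no summit.

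Collagen genes that the rule left out also had calls in coding exons. Of 7 such collagens (dpy-4, dpy-14, dpy-17, lon-3, bli-6, rol-1 and ram-2), all had a pooled call and all held a summit in an own coding exon, with 8 summits in 7.04 kb. Over all protein-coding genes these shares were 47.5% and 27.4%. For dpy-14 and rol-1 the highest summit near the TSS was in an intron. The summit at ram-2 was an IDR peak, at II:11015789-11016238 in a coding exon 867 bp downstream of the TSS, with a pooled signal of 103 and replicate signals of 49.3 and 51.3. The 3 basement membrane collagens emb-9, let-2 and cle-1, which are not cuticle proteins but share the glycine repeat, held 19 summits in 14.6 kb of coding exon (130 per 100 kb) and no IDR peak there.

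Over the 110 members the highest pooled signal ran from 18.5 to 231 with a median of 38.4, where all 9495 genes with a call had a median of 32.9. That order depended on the window: at 500 bp the medians were 29.9 for 61 members and 32.1 for all genes, and with upstream summits only, a setting chosen after seeing the data, 30.9 and 31.8. By the deposited q-value, 20 of 110 members had a highest call at q of 0.05 or less (18.2%), close to the background of 16.3%. The highest 10% of all genes with a call held 9 of 110 members (8.18%) and the lowest 10% held 4 (3.64%). Apart from col-63 and col-185, no member exceeded a signal of 80.5, and the lowest IDR peak had 86.5. The members just outside that limit were col-120 (80.5), col-129 (79.2), col-184 (79.1), col-85 (78.4), col-91 (77.1) and sqt-1 (76.0).

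**Figure D4:**
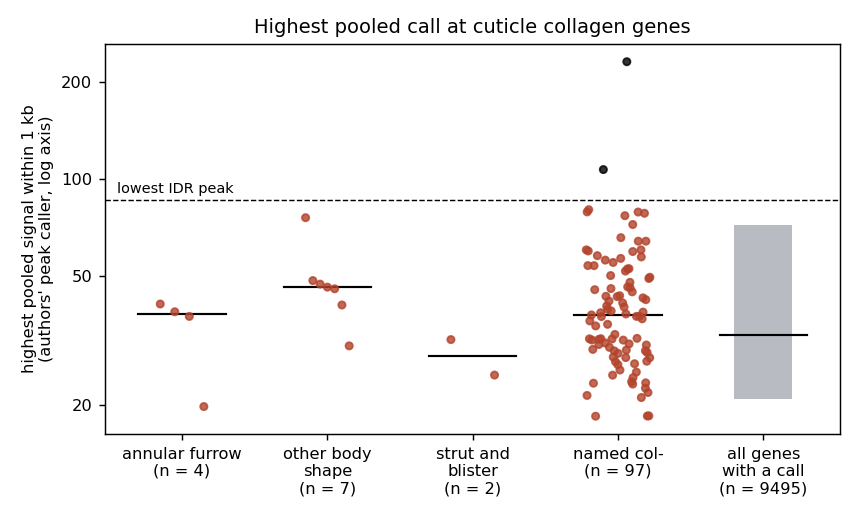
Highest pooled signal within 1000 bp of a TSS (y axis, log scale, the authors' peak caller's value) for each collagen gene with a call, by role, with medians as lines. The black points are col-63 and col-185, the only members above the lowest IDR peak (dashed, 86.5), and the grey bar spans the 10th to 90th percentile of 9495 genes with a call.

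Of the 2 IDR peaks near members, the lower lay on a tRNA gene. At col-185 (WBGene00000758, X:13510035-13511097, minus strand) the signals were 41.1 in replicate 1 and 70.3 in replicate 2, and 107 in the pool. The call ranked 912 in replicate 1, outside its 862 highest, and 444 in replicate 2. Its summit at X:13512004 was 907 bp upstream of the TSS and inside the tRNA gene WBGene00014413 (X:13511970-13512041, minus strand). The 151 bases around the summit are shown on the strand of the tRNA gene, with that gene in capitals, because the peak was centred on it and not on the collagen promoter.
col-185, chrX:13511929-13512079, minus strand: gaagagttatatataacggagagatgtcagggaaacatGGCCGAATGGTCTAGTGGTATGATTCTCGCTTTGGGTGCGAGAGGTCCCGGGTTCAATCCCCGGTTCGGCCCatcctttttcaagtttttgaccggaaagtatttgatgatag

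The higher of the 2 IDR peaks, the strongest call near any member, was that of col-63 (WBGene00000639, I:8243694-8244963, minus strand). Its signals were 101 in replicate 1 and 133 in replicate 2, and 231 in the pool. The replicate summits lay 63 bp apart. The pooled peak, I:8245526-8245640, had its summit 619 bp upstream of the col-63 TSS, and this summit was inside the 3′ UTR of the neighbouring homeobox gene ceh-8. No other TSS lay closer, and the nearest small RNA gene was 13855 bp away.

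At col-185, at least 1 stretch of 31 bases in the 101 bases around the summit occurs elsewhere in the genome, so which tRNA copy the reads came from is uncertain. Transfer RNA genes also lay close to the highest summits of 2 further members. In col-85 the summit was in an intron, 9 bp from the tRNA gene WBGene00014524, with signals of 33.2 in replicate 1 and 50.5 in replicate 2. In col-54 it was 11 bp from WBGene00023024, with 30.8 in the pool, 21.2 in replicate 2 and no call in replicate 1. In total 3 of 110 members (2.73%) had a tRNA, snoRNA, snRNA or miRNA gene within 200 bp of the highest summit, against 3.03% of all genes with a call, and none had a piRNA gene there. Inside the transcribed part of the members 1 of 208 pooled summits was an IDR peak (0.481%), against 283 of 20274 in all protein-coding genes (1.40%). That of the members was in an intron of col-99, at IV:143972 with a signal of 110, further than 1000 bp from the TSS and 10 bp from the tRNA gene WBGene00023019.

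Of the next 12 members by pooled signal, 9 had their highest summit in an own coding exon, the exceptions being col-85, col-39 and col-9. For col-120 the signals were 39.0 in replicate 1 and 41.0 in replicate 2, with a pooled signal of 80.5 and replicate summits 1 bp apart, 695 bp downstream of the TSS in the pool. For col-184 they were 35.4 in replicate 1 and 43.7 in replicate 2. These members were similar in both lists, whereas others were uneven. The values of col-129 were 20.6 in replicate 1 and 54.3 in replicate 2, and those of col-105 were 23.5 and 38.6. For col-130 they were 21.9 in replicate 1 and 44.1 in replicate 2, and for col-122 they were 24.5 and 47.4. The value of col-91 was 49.7 in replicate 1, where the call ranked 584, and 33.8 in replicate 2, where it ranked 2535. At col-9 the highest pooled summit lay 8 bp upstream of the TSS (signal 60.4), the promoter position that few members had. Its highest summit in replicate 1 was at -26 bp and in replicate 2 at 782 bp downstream, 808 bp apart. The neighbouring genes col-79 and col-39 shared 1 summit, in a coding exon of col-79, with a pooled signal of 64.3, so that 110 members rested on 109 distinct calls. The highest summits of col-39 lay 1448 bp apart in the replicates, in replicate 1 at 651 bp downstream of its TSS. For col-44 the highest summit lay 634 bp upstream, in a coding exon of its neighbour col-9.

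The body shape collagens other than the furrow class all had a pooled call, 7 of 7, with pooled signals from 30.5 to 76.0. A pooled call was found at 64.3% of all members and 47.5% of all protein-coding genes, and 7 genes are few. The highest was at sqt-1, with 42.4 in replicate 1 and 26.3 in replicate 2. Its pooled summit was 321 bp downstream of the TSS, and its highest replicate summits were at 448 bp in replicate 1 and 498 bp in replicate 2. For rol-6, whose altered product makes worms roll, the signals were 33.9 in replicate 1 and 14.9 in replicate 2, with a pooled signal of 48.6. For sqt-3 they were 31.4 in replicate 1 and 23.3 in replicate 2, with a pooled signal of 47.3. The replicate summits of sqt-3 lay 605 bp apart and thus did not mark 1 place, and the window around its pooled summit holds sequence found elsewhere in the genome. For dpy-13 the signals were 20.8 in replicate 1 and 26.5 in replicate 2, with a pooled signal of 40.8 and replicate summits 353 bp apart. For dpy-5 they were 30.5 in replicate 1, 24.7 in replicate 2 and 30.5 pooled, with replicate summits 261 bp apart. Upstream summits were highest at rol-8 (46.3 in the pool, 798 bp from the TSS) and sqt-2 (45.8, 891 bp). The highest replicate summits of rol-8 lay 1251 bp apart, and those of sqt-2 were both downstream of the TSS, at 576 bp in replicate 1 and 408 bp in replicate 2. An IDR peak lay 1340 bp downstream of the sqt-2 TSS, past the end of the gene and outside the window, with a signal of 120.

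Of the 6 collagens of the annular furrows, the circumferential grooves of the cuticle, 4 had a pooled call (66.7%, background 47.5%), none an IDR peak. The signals of dpy-9 were 23.3 in replicate 1 and 14.7 in replicate 2, with a pooled signal of 41.1 and replicate summits 1461 bp apart. The signals of dpy-3 were 18.5 in replicate 1 and 21.3 in replicate 2, with a pooled signal of 38.9, and the replicate summits were 6 bp apart, 551 bp downstream of the TSS in the pool. For dpy-7 they were 21.8 in replicate 1, 23.9 in replicate 2 and 37.6 pooled, with replicate summits 242 bp apart. The gene dpy-2 had a pooled call of 19.8 and none in either replicate. The converse held for dpy-8, with 18.9 in replicate 1, 23.7 in replicate 2 and no pooled call, and dpy-10 had no call in any of the 3 lists. The collagens of the struts of the adult cuticle were low: bli-1 had 18.7 in replicate 1 and 15.8 in replicate 2, with a pooled signal of 24.8, at a summit 845 bp upstream in a coding exon of the neighbouring member col-80, and bli-2 had 23.2 in replicate 2, 31.9 in the pool and no call in replicate 1. The adult collagen gene col-19, a marker of the larva-to-adult switch, had 19.2 in replicate 1 and 35.2 in replicate 2, with a pooled signal of 59.9 and both replicate summits at the same base in its coding exon.

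Within 1000 bp of a TSS, calls in both replicates were more frequent at members than over all protein-coding genes. Where both lists had a call, the highest summits coincided about as often. Replicate 1 had a call at 107 members (62.6%, background 41.1%) and replicate 2 at 112 (65.5%, background 46.7%). Both lists had one at 85 members (49.7%, interval 42.3 to 57.1), where the background was 30% of all protein-coding genes. Within 500 bp of a TSS the order turned, with 25 members (14.6%) and 18.6% of all genes. The highest summits of the replicates lay within 100 bp of each other for 30 of those 85 members (35.3%) and for 36.6% of 6002 genes with calls in both. Counting any pair of summits within 100 bp, 51 of 171 members (29.8%) and 16.7% of all protein-coding genes had calls in both lists. Over the 85 members the log10 signals of the replicates had a Pearson's r of 0.442 and a Spearman's rho of 0.267, compared with 0.764 and 0.524 over the 6002 genes. These are descriptions across genes of 2 libraries, and col-63 and col-185 are among the 85 points. A call in replicate 1 and none in replicate 2 was found at 22 members (12.9%, background 11.1%). The highest of them were col-102 (35.2, no pooled call), col-163 (29.3), col-49 (28.2) and col-152 (27.6, no pooled call). The reverse was found at 27 members (15.8%, background 16.7%), with col-79 (52.4), col-121 (38.2), col-177 (36.6) and col-137 (30.9) highest.

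**Figure D5:**
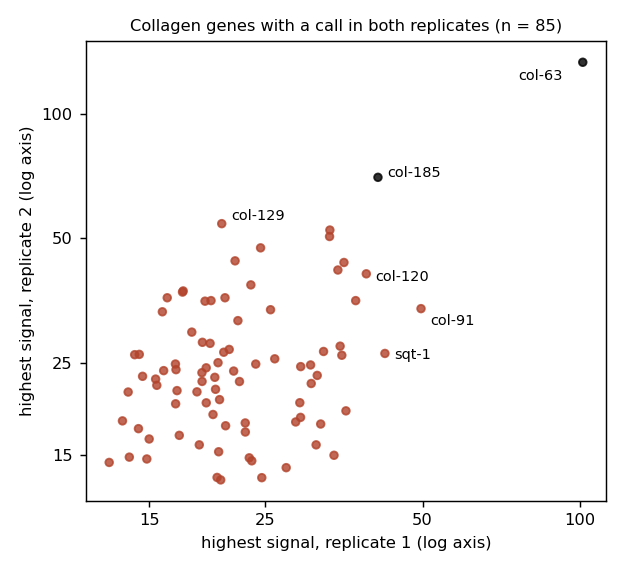
Highest signal within 1000 bp of a TSS in replicate 1 (x axis) and replicate 2 (y axis), both on log scales and in the authors' peak caller's units, for the 85 collagen genes with a call in both lists. The black points, col-63 and col-185, are those with an IDR peak. Apart from these 2 genes the points form a broad cloud, with Spearman's rho of 0.267 over all 85.

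When each replicate list was cut to its 862 highest calls, 3 members remained in replicate 1 (1.75%, background 3.24%), namely col-63, col-91 and sqt-1. In replicate 2 there were 5 (2.92%, background 3.41%), namely col-63, col-185, col-129 and the pair col-39 and col-79. Only col-63 was in both sets. With the 1724 highest calls of each list the order turned, with 15 members (8.77%) and 5.86% of all genes in replicate 1, and 11 (6.43%) and 6.05% in replicate 2.

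Of the 22 members that share most sequence with other places in the genome, 20 had no pooled call. Of 171 members, 61 had no pooled call and 32 had no call in any of the 3 lists. A call in at least 1 list was present at 139 members (81.3%), against 60.7% of all protein-coding genes. In the 61 members the median share of 31-base stretches that occur elsewhere in the genome was 3.46%, with an upper quartile of 72.4%. In the 110 members with a call the median was 0.484% and the upper quartile 4.65%. A pooled call was present at 2 of the 22 members with 50% or more of such stretches, col-146 and col-166, at 17 of 22 members with 10 to 50%, and at 91 of 127 members under 10%. A call in any of the 3 lists was present at 5, 20 and 114 members of these classes. Shared sequence was not measured over other protein-coding genes, so the classes have no background share. Over all protein-coding genes, whatever their shared sequence, 47.5% had a pooled call. These limits were set after the values were seen. A read that matches more than 1 copy cannot be placed on 1 gene, and how the authors treated such reads is not given in the sources used here. Read length and mapping were not examined, so no statement is made about the occupancy of those members. The median gene length was 1199 bp in members with a call and 1269 bp in those without.

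By chromosome, calls were found at 25 of 32 members on II (78.1%, against 46.7% of all genes there), 8 of 12 on III (66.7%, against 61.2%), 27 of 43 on IV (62.8%, against 48.6%) and 18 of 32 on V (56.3%, against 33.9%). On X they were found at 20 of 30 members (66.7%, against 47.1%). On I the order was the other way, with 12 of 22 members (54.5%) and 58.4% of all genes.

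Other genes of cuticle making and moulting were taken from 5 lists of 67 genes, of which 66 matched the annotation by name. A pooled call was found at 40 (60.6%, background 47.5%) and an IDR peak at 6 (9.09%, background 3.37%). The lists were chosen with earlier results of these data known, so these shares cannot be read as free of that choice. Of 20 genes for collagen processing, secretion and cross-linking 13 had a call (65%) and 2 an IDR peak. These were pdi-6, a protein disulphide isomerase of the endoplasmic reticulum, with 62.8 in replicate 1 and 75.1 in replicate 2, with a pooled signal of 143, 15 bp downstream of its TSS, and sec-24.1, a coat protein of secretory vesicles, with 41.7 in replicate 1, 60.9 in replicate 2 and 111 pooled, 154 bp upstream. The next highest were pdi-2, a subunit of the collagen prolyl hydroxylase (72.5 in the pool, 62 bp upstream), and pdi-1 (65.6, 354 bp upstream). These 4 summits lay between 354 bp upstream and 15 bp downstream of the TSS. Of 13 epidermal and moulting regulators 8 had a call (61.5%) and 2 an IDR peak, the transcription factor genes myrf-1 (58.0 in replicate 1 and 75 in replicate 2, with a pooled signal of 128, 281 bp upstream) and myrf-2 (43.0 in replicate 1, 61.5 in replicate 2 and 90.9 pooled, 165 bp upstream). The next highest were peb-1 (76.7) and lin-26 (49, at a summit nearer to the TSS of lir-1). Of 23 other cuticle and apical matrix genes 9 had a call (39.1%), and the cuticlin gene cut-2 had an IDR peak in a coding exon 833 bp downstream of its TSS, with 43.9 in replicate 1 and 45.3 in replicate 2, with a pooled signal of 89.6. In that list lpr-3 (35.1) and nas-36 (33.6) followed. The basement membrane genes let-2 (48.1) and cle-1 (36.4), and the cuticle collagen genes dpy-17 (57.9) and bli-6 (48.5), were the next highest in their lists.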

How the data were processed

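Peaks of tagged F10B5.3 were taken from the ce11 lists of 2 replicates, of their pool and of the IDR set. Per the deposited notes, relaxed peaks had been called by the authors on each replicate's alignment and on both together, each against a control alignment, and filtered by IDR analysis. No aligner, peak caller, version or IDR threshold is given in the sources used here. Both the signal and the −log10 q-value of each call are the authors' values as deposited, on scales not stated, so signals were ranked and described within a list. The ce10 lists were not used. All ce11 coordinates lay within the chromosome lengths of the WBcel235 sequence.

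Summits were linked to the TSSs of all protein-coding transcripts (Ensembl release 115) with Python 3.11.15, pandas 2.3.3, numpy 2.4.6 and scipy 1.17.1, and the linking was tested on simulated data. Positions were read from protein-coding models, coding exons first. Small RNA genes were tRNA, snoRNA, snRNA and miRNA genes. Members and lists were chosen with earlier results of these data known. Named were members with an IDR summit, the next 12 by signal, the 15 not named col-, up to 4 per replicate found in that list alone, and in each other list up to 6 with an IDR summit and 2 more. Others were chosen after their values were seen: col-19, col-44, col-54, col-94, col-99, col-146, col-166 and col-181. Depth is unknown, so precision could not be derived from reads.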

Additional observations from a re-analysis of the deposited data

How the results depend on the processing

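The counts kept within 1.5 times of those reported when each summit went to its nearest TSS only, with 1 TSS per gene, with any base of the call in the window and for genes named col- only. At 500 bp there were 0 members with an IDR summit, against 2.5% of all protein-coding genes, 61 with a pooled call (35.7%, against 35%), 25 with calls in both replicates (14.6%, against 18.6%) and a median signal of 29.9. At 2000 bp 5 members had an IDR summit (col-94, col-181 and sqt-2 were added) and the median was 40.6. With summits upstream of the TSS only, a setting chosen after seeing the data, 38 members had a pooled call (22.2%, against 32.1%), 19 had calls in both replicates (11.1%, against 16.5%) and the median was 30.9. Without calls near small RNA genes 1 member, col-63, kept an IDR summit. The 431 highest IDR peaks left 1 member, and ranking pooled calls to 1.5 and 2 times the number of IDR peaks gave 9 (5.26%, against 4.86% of all genes) and 12 (7.02%, against 6.15%), the reverse of the order in the IDR set. Requiring replicate summits within 100 bp left 51 members with calls in both (29.8%, against 16.7%). With 1 replicate left out, the members at the other's 862 highest calls numbered 3 to 5, those with any call 107 to 112, and the median signal was 20.4 to 23.1 on the replicate lists' own scale. With the 431 highest calls 1 member was found in replicate 1 and 1 in replicate 2, and with the 1724 highest 15 in replicate 1 (8.77%, against 5.86%) and 11 in replicate 2 (6.43%, against 6.05%), above the all-gene share where the 862 highest were below it. Of the 6 IDR-marked genes in the other lists, 4 were found at 500 bp and 6 at 2000 bp. The causes were not tested. No paired analysis was possible because the series holds 1 group. Depth is unknown, and calls near the lowest listed signal limit every count of relaxed calls.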

Other observations

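Short motifs were counted on both strands in 2 windows, as letters only. In promoters, from 250 bp before to 50 bp after the gene start, TATAAA, the usual TATA box, was found in 113 of 171 collagen genes (66.1%), against 37.9% of all nuclear protein-coding genes. GATAA, the core bound by GATA factors, which include regulators of the epidermis, was in 110 members (64.3%, against 57.6%). AGGTCA, a core site of nuclear receptors, was in 25 (14.6%, against 8.27%), and GAGAGA in 48 (28.1%, against 21.8%). TTTCAC was in 45 (26.3%, against 31.2%) and TTCNNGAA, the core of heat shock elements, in 30 (17.5%, against 18.9%).

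At the highest summits, within 50 bp, the AT-rich motifs were rarer in members than in all genes with a call. GATAA was at 9 of 110 summits (8.18%, against 18.6%) and TATAAA at 6 (5.45%, against 13.0%). TTTCAC was at 6 (5.45%, against 8.95%), TTCNNGAA at 2 (1.82%, against 5.39%) and GAGAGA at 8 (7.27%, against 8.78%), while AGGTCA was at 7 (6.36%, against 2.25%). The members' summits also had a higher GC content, and its part in these counts was not tested.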
